A study of Canis lupus familiaris with 18 samples.

Results

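The oligodendrocyte lineage transcription factors were followed through RNASeq libraries of canine high grade oligodendroglioma (HGO), a glial brain tumor. The set was named by symbol as 9 genes (OLIG1, OLIG2, NKX2-2, SOX10, SOX8, SOX6, SOX2, MYRF and ZNF488), and 8 of them were matched to the 29993 genes counted. SOX2 was not analysed here. The study compared tumors of 11 French bulldogs with those of a comparison group of 7 dogs, made up of 4 boxers and 3 Boston terriers, all from forebrain tissue fixed in formalin, embedded in paraffin and taken by surgery before trial treatment. The comparison dogs are numbered 1 to 7 across both breeds, with boxers 1, 3, 4 and 5 and Boston terriers 2, 6 and 7. The sample labels give breed and tissue and no age or treatment, and there was no normal brain among the libraries.

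These genes encode the DNA-binding proteins that commit neural progenitors to the oligodendrocyte lineage and carry them toward myelination. OLIG2 and OLIG1 are basic helix-loop-helix factors, and OLIG2 is needed for the precursors to form and is widely used to mark glioma cells. NKX2-2 is a homeodomain factor of precursors, SOX10 and SOX8 are closely related SOX factors that act through the whole lineage, SOX6 holds precursors back from maturation, and MYRF switches on myelin genes in cells that mature. ZNF488 is a zinc finger protein that works with OLIG2 in differentiation.

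The total counted on genes was 8212452 to 13169880 per library. Levels are given as CPM, the counts scaled to a common library size, after TMM scaling, which corrects that size for differences in composition. Under it 3 counts, taken as the detection floor, corresponded to 0.223 to 0.351 CPM (counting error only). Transcript lengths were not used, so levels are compared between libraries for 1 gene and not between genes. In tissue of this kind fewer cells of the lineage and less of an RNA per cell cannot be told apart.

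Some libraries stood apart from the rest in these genes. In French bulldog 6, 7 of the 8 factors lay below every one of the other 17 libraries, and their sum was 2.79 CPM against 1263 to 2595 CPM elsewhere. The share of all genes kept for testing that lay below all the others in that library was 29.9%. Its 8 factors had 27 counts in all, of which MYRF held 12 and ZNF488 held 5. NKX2-2 had 0 counts there, which makes it at least 209-fold lower than the median of the other libraries with 3 counts as the floor. The median of the others in MYRF was 55.0 times the level of French bulldog 6 (95% counting interval 31.5 to 107). ZNF488 alone was not low in that library, at 0.518 CPM against 0 to 3.80 CPM.

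Other glial and neural genes were low in French bulldog 6 as well. Of the precursor markers 7 of 8 lay below all other libraries, with PDGFRA, the receptor of the main precursor mitogen, at 42.0 CPM against 163 to 4964 CPM and the proteoglycan CSPG4 at 0.518 CPM against 16.8 to 135 CPM. The same held for 9 of 11 myelin genes, with MBP at 15.3 CPM against 86.9 to 4545 CPM, for 6 of 7 astrocyte markers, with GFAP at 3.11 CPM against 132 to 2577 CPM, and for 10 of 10 neuronal markers, with RBFOX3 at 0.104 CPM against 1.67 to 31.8 CPM. Of 12 macrophage and microglia markers 10 lay above all other libraries, as did 20.7% of genes kept, and their sum was 7502 CPM against 74.6 to 474 CPM, with the microglial protein gene AIF1 at 120 CPM against 1.77 to 11.7 CPM. Of 6 proliferation genes 4 lay above all other libraries, with TOP2A at 344 CPM against 18.1 to 235 CPM, and their sum was 1028 CPM against a range of 57.0 to 1064 CPM and a median of 214 CPM. The sums for endothelial markers (254 CPM against 150 to 874 CPM) and Schwann cell markers (49.7 CPM against 21.6 to 247 CPM) lay inside the range of the others, while that of fibroblast genes (866 CPM against 36.2 to 829 CPM) lay just above it. The summed precursor and myelin markers were 306 and 137 CPM in this library against 3251 to 14602 and 474 to 8871 CPM elsewhere. Tests of breed are given with and without French bulldog 6, while levels, ratios and correlations below leave it out unless it is named.

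**Figure D1:**
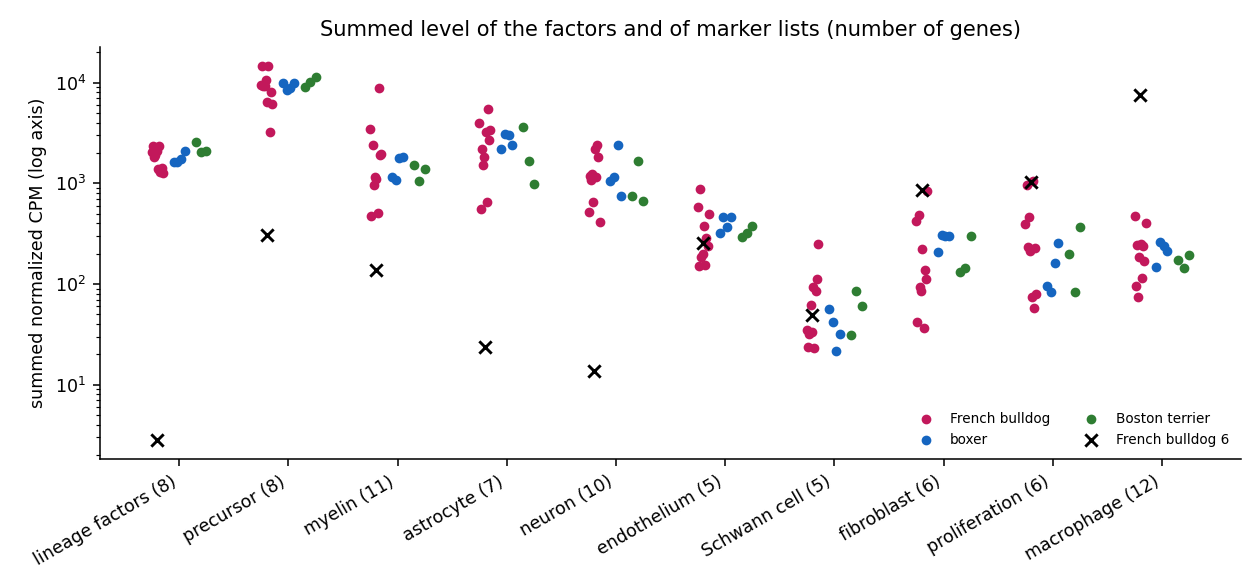
Summed level in normalized CPM (log axis) of the 8 lineage factors and of 9 marker lists, with the number of genes of each list in brackets; each point is 1 library, colored by breed, and the cross is French bulldog 6. The cross lies below all points for the factors, precursor, myelin, astrocyte and neuron lists and above all points for the macrophage and fibroblast lists.

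French bulldogs 2 and 8 were alike. Their library names share a case number, and their log2 CPM over all genes kept correlated at r = 0.981, against a highest value of 0.946 for any other pair of libraries. Their counts still differed by more than counting noise, with a mean chi-square of 8.72 per gene, so they were not 1 library deposited in duplicate. The library names differ in the final letter. The paper lists French bulldogs 2 and 8 as separate dogs, of the same age and sex and with tumors in the same lobe. Whether the shared case number means that both came from 1 dog was not tested. They were counted as 2 libraries in the group means, SDs, ratios and main tests, which do not allow for a shared dog, and averaged to 1 value in the correlations. With their counts summed to 1 library, no factor had an edgeR p under 0.05, adjusted or not, and with French bulldog 6 also left out OLIG2 alone had an unadjusted one (-0.41, edgeR adjusted p = 0.570).

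The OLIG pair differed in how French bulldogs 2 and 8 stood. OLIG1 was 313, 406 and 953 CPM (lowest, median, highest) in the 10 French bulldogs other than French bulldog 6, and 353, 436 and 582 CPM in the comparison dogs. The highest values were 848 and 953 CPM in French bulldogs 2 and 8, above every other library. The means were 498 ± 220 CPM (SD, n = 10) and 454 ± 79.3 CPM (SD, n = 7), and the groups overlapped. OLIG2 was 87.4, 156 and 206 CPM in the same French bulldogs and 148, 187 and 279 CPM in the comparison dogs. The lowest OLIG2 was that of French bulldog 9 and the highest that of Boston terrier 7, and 4 of the 10 French bulldogs lay below all comparison dogs. OLIG2 means were 154 ± 36.4 CPM (SD, n = 10) and 202 ± 45.1 CPM (SD, n = 7).

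NKX2-2 varied over a wider range than the OLIG pair. It was 20.9, 79.2 and 135 CPM in the 10 French bulldogs, where French bulldogs 2, 4, 5 and 8 held 118 to 135 CPM and French bulldog 9 the lowest value. It was 50.1, 59.6 and 111 CPM in the comparison dogs, of which Boston terrier 2 alone exceeded 73.2 CPM. The NKX2-2 means were 84.2 ± 42.3 CPM (SD, n = 10) and 68.3 ± 20.6 CPM (SD, n = 7).

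The SOX factors overlapped between the groups, and some French bulldogs lay below all comparison dogs in each of them, namely 2 of 10 in SOX10, 4 of 10 in SOX6 and 6 of 10 in SOX8. SOX10 was 153, 326 and 462 CPM in the 10 French bulldogs and 208, 330 and 467 CPM in the comparison dogs. SOX6 was 141, 473 and 614 CPM in the former and 306, 438 and 698 CPM in the latter. French bulldog 9 was the lowest of the 17 libraries in both genes, and Boston terrier 2 the highest. SOX8 was 82.8, 179 and 471 CPM in the French bulldogs and 209, 337 and 477 CPM in the comparison dogs. French bulldogs 2 and 8, which were high in SOX10, had the lowest SOX8 of the 17 libraries (82.8 and 99.6 CPM). SOX8 means were 244 ± 145 CPM (SD, n = 10) and 333 ± 96.3 CPM (SD, n = 7).

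MYRF, the factor of myelinating cells, varied most of the 7 factors other than ZNF488. It was 9.91, 55.8 and 220 CPM in the 10 French bulldogs and 58.3, 79.5 and 167 CPM in the comparison dogs. French bulldogs 2 and 8 held 9.91 and 11.8 CPM, while no other library except French bulldog 6 was under 32.7 CPM. The highest value belonged to French bulldog 9, the library that was lowest in OLIG2, NKX2-2, SOX10 and SOX6.

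ZNF488 was close to the limit of the depth. It had 0 counts in French bulldogs 2 and 8 and 20 or fewer counts in the other French bulldogs. The 4 boxers had 4, 14, 40 and 20 counts and the 3 Boston terriers had 7, 4 and 6 counts. Over all 18 libraries it had 150 counts, and 5 libraries were at or under 3 counts.

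**Figure D2:**
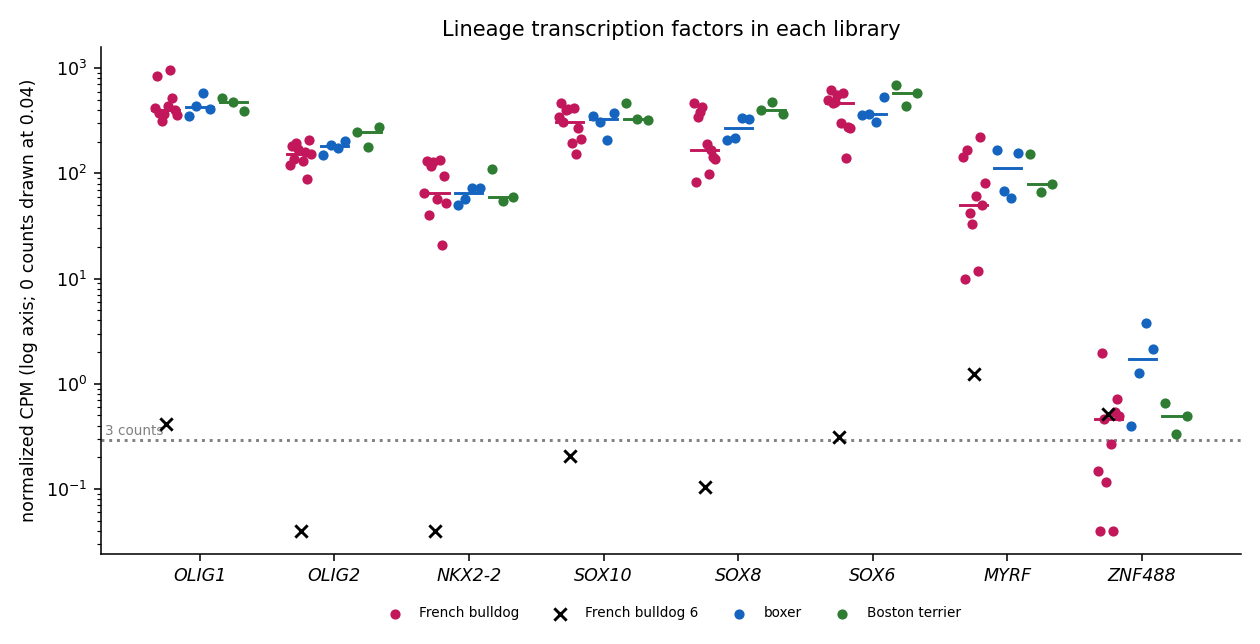
Normalized CPM (log axis) of 8 lineage transcription factors in each library, colored by breed, with a bar at the median of each breed (all 11 French bulldogs for that breed), a cross for French bulldog 6 and a dotted line at the median over libraries of the level of 3 counts; libraries with 0 counts are drawn at 0.04. French bulldog 6 lies far below the other libraries in every gene but ZNF488, and the breeds overlap in 7 of the genes while the boxers lie below the Boston terriers in SOX8.

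Without French bulldog 6, OLIG2, OLIG1 and SOX10 varied less than the median gene and the other 4 factors tested varied more. The SD of log2 CPM over the 17 libraries was 0.40 for OLIG2, 0.43 for OLIG1 and 0.46 for SOX10, against a median of 0.55 over all genes kept. It was larger for SOX6 (0.58, percentile 53.7 of all genes), NKX2-2 (0.71, percentile 64.6), SOX8 (0.80, percentile 71.1) and MYRF (1.28, percentile 90.6). With French bulldog 6 the SD rose to between 1.81 and 2.42 and all 7 genes lay at or above percentile 94.4. In mean log2 CPM without French bulldog 6, not corrected for transcript length, they lay at percentile 85.7 (MYRF) to 99.5 (OLIG1). Their SD was not set against that of genes of like level.

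Whether the factors differ between French bulldogs and the comparison dogs was asked with edgeR's quasi-likelihood F test on all genes kept, two-sided and with Benjamini-Hochberg adjustment. None of the 7 factors tested passed an adjusted p of 0.05 (edgeR), nor an unadjusted p of 0.05. Over all 16495 genes the shares called were 0.00606% and 10.6%. ZNF488 was under the count filter of this test. DESeq2's Wald test without that filter called 0 of 8 factors after adjustment, where it called 0.213% of genes, and 1 at an unadjusted p under 0.05, a share of genes that was 9.62% by that tool. That factor was ZNF488 (log2 fold change -1.44, adjusted p = 0.376). The median log2 fold change of the 7 factors in edgeR was -0.31, with 6 of 7 below 0, against a median of 0.04 and 46.3% of values below 0 over all genes.

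The differences were small or imprecise. OLIG1 had a log2 fold change (French bulldog minus comparison) of -0.00 (SE 0.59, edgeR adjusted p = 0.999), SOX10 of -0.23 (SE 0.58, adjusted p = 0.923) and SOX6 of -0.31 (SE 0.60, adjusted p = 0.896). NKX2-2 was the one positive value, at 0.16 (SE 0.61, edgeR adjusted p = 0.955). OLIG2 (-0.53, SE 0.57), SOX8 (-0.59, SE 0.63) and MYRF (-0.52, SE 0.64) had the most negative values, with edgeR adjusted p-values of 0.764, 0.765 and 0.799.

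Leaving out French bulldog 6 narrowed the errors and called no factor after adjustment (background 0.0183% of 16403 genes). OLIG2 was then the 1 factor with an unadjusted p under 0.05, a share of genes that was 10.8% overall. Its log2 fold change was -0.38 (SE 0.17, edgeR p = 0.0383, adjusted p = 0.442), and it was -0.38 by DESeq2 as well (adjusted p = 0.352). Against the comparison dogs 1 to 4, whose library names form 1 numbered series, the value was -0.29 (edgeR p = 0.179, adjusted p = 0.889), and against dogs 5 to 7, which form another, it was -0.52 (edgeR p = 0.0340, adjusted p = 0.780). Each of these series holds dogs of both comparison breeds (boxers 1, 3 and 4 with Boston terrier 2, and boxer 5 with Boston terriers 6 and 7). The French bulldog libraries have lower numbers than those of dogs 1 to 4, and the numbers of dogs 5 to 7 repeat some of theirs. Against dogs 5 to 7 a difference of breed and a difference of series cannot be told apart. A fit with series as a term was not run. The other factors moved to 0.16 (OLIG1, SE 0.23), 0.32 (NKX2-2, SE 0.31), -0.06 (SOX10, SE 0.21), -0.42 (SOX8, SE 0.34), -0.15 (SOX6, SE 0.26) and -0.34 (MYRF, SE 0.52). The 95% interval of SOX10 then ran from -0.49 to 0.36, and that of MYRF from -1.36 to 0.68.

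**Figure D3:**
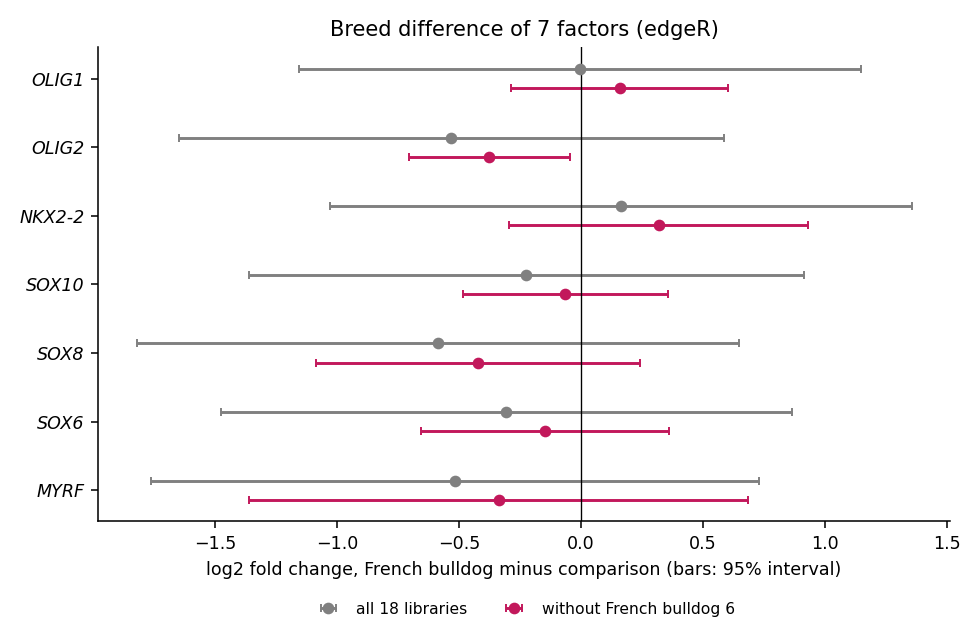
Log2 fold change of 7 lineage factors, French bulldog minus comparison, from edgeR, with 95% intervals for all 18 libraries (grey) and without French bulldog 6 (pink). All grey intervals span 0, and without that library the interval of OLIG2 alone lies below 0, at an adjusted p of 0.442.

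The breeds were also set against each other in 1 fit of 3 groups, in which ZNF488 passed the filter. No factor was called after adjustment in any of the 3 comparisons (edgeR, 8 factors), where 0%, 0.00558% and 0% of 17934 genes were called for French bulldog against boxer, French bulldog against Boston terrier and boxer against Boston terrier. At an unadjusted p under 0.05 the count was 1, 0 and 0 of the 8 factors, against 8.26%, 3.84% and 2.12% of all genes. Without French bulldog 6 no factor was called after adjustment either. The 1 factor was ZNF488, lower in French bulldogs than in boxers by a log2 fold change of -1.98 (SE 0.74, edgeR p = 0.0156, adjusted p = 0.592), and it was -1.99 without French bulldog 6 (edgeR adjusted p = 0.4996). Leaving out single boxers or Boston terriers gave -2.32 to -1.37 with adjusted p from 0.622 to 0.862. The groups overlapped, since boxer 1 had 4 counts.

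The medians of OLIG2 rose in the order French bulldog, boxer, Boston terrier. The boxers had 148, 187, 174 and 203 CPM and the Boston terriers 245, 177 and 279 CPM, and neighbors in this order overlapped. Without French bulldog 6 the log2 fold change was -0.21 against boxers (SE 0.20, edgeR adjusted p = 0.772) and -0.60 against Boston terriers (SE 0.22, edgeR p = 0.0125, adjusted p = 0.884), with 5.14% of genes at an unadjusted p under 0.05 in the latter. With all libraries these were -0.35 (SE 0.70) and -0.74 (SE 0.76).

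SOX8 was the 1 factor in which the comparison breeds did not overlap. The boxers had 209, 215, 337 and 328 CPM and the Boston terriers 399, 477 and 366 CPM. All boxers lay below all Boston terriers, as did 3.53% of genes, and the log2 fold change was -0.61 (SE 1.02, edgeR adjusted p = 1), with an SE of 0.52 and the same adjusted p without French bulldog 6. The French bulldogs, at 82.8 to 471 CPM without French bulldog 6, covered the values of both breeds apart from the highest Boston terrier.

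Ratios of 2 factors within a library do not depend on how that library was scaled. They were taken over the 17 libraries with more than 3 counts of both genes, which leaves out French bulldog 6, and tested by exact permutation over 19448 splits, two-sided, with adjustment over 3 ratios. The log2 ratio of OLIG1 to OLIG2 was 1.63 ± 0.66 in French bulldogs (SD, n = 10) and 1.18 ± 0.38 in comparison dogs (SD, n = 7), a difference of 0.46 (exact permutation p = 0.126, adjusted p = 0.261). That of SOX8 to SOX10 was -0.54 ± 1.00 and -0.04 ± 0.54, a difference of -0.50 (exact permutation p = 0.261, adjusted p = 0.261). This ratio was lowest in French bulldogs 2 and 8, at -2.48 and -2.08, and the difference was -0.31 with the pair averaged (exact permutation p = 0.449), -0.29 without French bulldog 2 and -0.33 without French bulldog 8. That of SOX10 to OLIG2 was 1.00 ± 0.41 and 0.73 ± 0.38, a difference of 0.27 (exact permutation p = 0.189, adjusted p = 0.261). No ratio differed by more than the spread between dogs allowed for.

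Co-variation of the factors was measured over 16 values, without French bulldog 6 and with French bulldogs 2 and 8 averaged. Pearson's r and Spearman's rho of log2 CPM were computed for the 21 pairs of 7 factors, with p-values from 100000 permutations, two-sided, and Benjamini-Hochberg adjustment over the 21 pairs. The points share the scaling of each library and the mix of cells in each tissue block. Adjusted p-values were under 0.05 for 6 pairs by r and 3 by rho, and 1 of the 6 was negative. For the positive pairs, 0.00606% to 4.35% of the other 16494 genes had an r with 1 factor at least as high as its partner. In the negative pair, NKX2-2 and MYRF, these shares were 98.3% (with NKX2-2) and 99.0% (with MYRF). With all 18 libraries the median r was 0.95 and 15 pairs passed by r, against a median of 0.14 over the 16 values, while by rho 3 pairs passed with all 18 libraries as well. With DESeq2 size factors in place of TMM, 4 pairs passed by r and 2 by rho.

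SOX10 and SOX6 were the closest pair. Their r was 0.908 and rho 0.856 (permutation p = 2e-05, adjusted p = 0.00042 for r, and adjusted p = 0.00147 for rho), and r was 0.856 without the 2 values farthest from the median of SOX10. It was 0.939 within the French bulldogs (n = 9, exact permutation p = 0.000281) and 0.789 within the comparison dogs (n = 7, exact permutation p = 0.0248, adjusted p = 0.174). Of 16494 other genes none had a higher r with SOX6 than SOX10 did, and 1 gene, which has no symbol, had a higher r with SOX10 than SOX6 did.

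NKX2-2 varied with SOX10, SOX6 and OLIG2. The r of NKX2-2 was 0.719 with SOX10 (rho 0.671, permutation adjusted p = 0.0171 and 0.0379), 0.685 with SOX6 (rho 0.629, permutation adjusted p = 0.0216 and 0.0562) and 0.628 with OLIG2 (rho 0.529, permutation adjusted p = 0.0347 and 0.158). Without the 2 values farthest from the median of SOX10, of NKX2-2 and of OLIG2, in that order, these became 0.548, 0.354 and 0.565. Within French bulldogs they were 0.836, 0.755 and 0.860, and within comparison dogs 0.376, 0.586 and 0.508. Over all genes, 1.38%, 2.31% and 4.30% had an r with NKX2-2 at least as high, in the same order. With DESeq2 size factors the pair of NKX2-2 and OLIG2 no longer passed by r (r = 0.592, permutation adjusted p = 0.0569), nor that of NKX2-2 and SOX10 by rho (permutation adjusted p = 0.0556). OLIG2 and SOX6 had r = 0.640 and rho = 0.447 (permutation adjusted p = 0.0347 and 0.261), with 0.534 and 0.821 within the groups. That relation fell to 0.281 without the 2 values farthest from the median of OLIG2 and so rested on them. With DESeq2 size factors it did not pass (permutation adjusted p = 0.0569). Of all genes 4.35% had an r with SOX6 at least as high as that of OLIG2.

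NKX2-2 and MYRF went in opposite directions. Over the 16 values r was -0.682 and rho -0.718 (permutation adjusted p = 0.0216 and 0.0241), and r was -0.497 without the 2 values farthest from the median of NKX2-2. Within the French bulldogs it was -0.866 (n = 9, exact permutation adjusted p = 0.0247), with French bulldog 9 at 20.9 CPM of NKX2-2 and 220 CPM of MYRF and French bulldogs 2 and 8 at the other end. Within the comparison dogs it was 0.311 (n = 7, exact permutation p = 0.553), and over all 18 libraries 0.53, so the negative sign was seen within the French bulldogs when French bulldog 6 was left out. The difference in r between the groups was not tested.

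OLIG1 passed with no other factor over the 16 values. Its r was -0.403 with MYRF and -0.380 with SOX8 (permutation adjusted p = 0.288 and 0.306). With French bulldogs 2 and 8 as separate values (n = 17) these were -0.585 and -0.538, and the pair with MYRF then passed by r and not by rho (permutation adjusted p = 0.0416 and 0.533). Its r with OLIG2, the gene next to it on the chromosome in the RefSeq annotation of UU_Cfam_GSD_1.0, was -0.05 (rho 0.01, permutation p = 0.843 and 0.961), and 55.2% of genes had an r with OLIG1 at least as high as that of OLIG2. SOX8 passed with no other factor either, its highest r being 0.476 with SOX6 (rho 0.497, permutation adjusted p = 0.159 and 0.183).

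**Figure D4:**
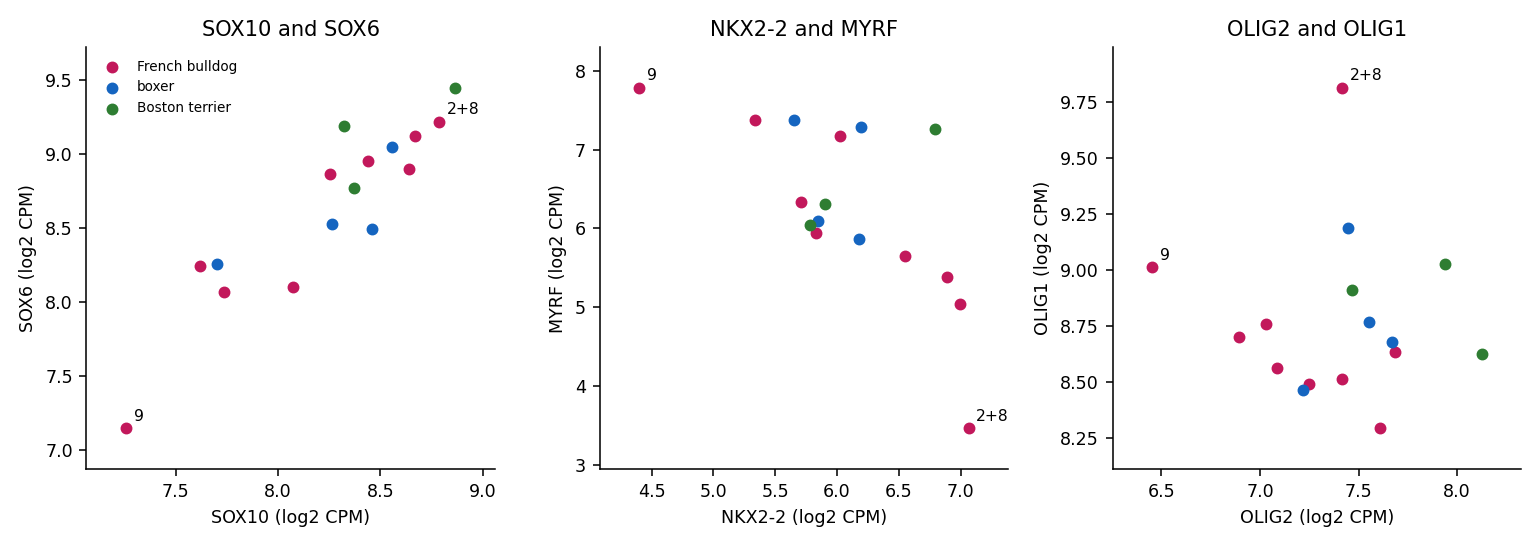
Log2 CPM of SOX6 against SOX10, MYRF against NKX2-2 and OLIG1 against OLIG2, with 1 point for each of 16 values colored by breed, and French bulldog 9 and the average of French bulldogs 2 and 8 labelled. SOX10 and SOX6 rise together (r = 0.908), NKX2-2 and MYRF fall along a line in the French bulldogs (r = -0.866), and OLIG1 and OLIG2 show no relation (r = -0.05).

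The factors were then set beside marker lists of the cell types that the tissue can hold, each scored by averaging the standardized log2 CPM of its genes, which gave 35 relations adjusted together. By r 10 passed an adjusted p of 0.05 and by rho 2 passed. MYRF rose with the myelin list (r = 0.732, rho = 0.559, permutation adjusted p = 0.0224 and 0.158), at 0.912 within French bulldogs and 0.0141 within comparison dogs. It was 0.379 without the 2 values farthest from the median of the factor, which is how values are left out for all lists. SOX10, NKX2-2 and SOX6 fell with it (r = -0.624, -0.682 and -0.644, permutation adjusted p = 0.0377, 0.0331 and 0.0387), but none of the 3 passed by rho. Within French bulldogs these r were -0.676, -0.819 and -0.720, and within comparison dogs -0.397, 0.534 and -0.224. Without the 2 farthest values they were -0.480, -0.147 and -0.331, so the relation of NKX2-2 rested on those values. French bulldog 9 had the highest sum of the 11 myelin genes, 8871 CPM, and French bulldogs 2 and 8 had 474 and 502 CPM, the lowest after French bulldog 6.

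SOX6, SOX10 and SOX8 rose with the score of the precursor list, which holds 8 genes that did not all go with it. Their r was 0.791, 0.681 and 0.643 (permutation adjusted p = 0.00875, 0.0272 and 0.0331) and their rho 0.632, 0.503 and 0.462, of which none passed. Within French bulldogs r was 0.839, 0.724 and 0.699, and within comparison dogs 0.664, 0.593 and 0.0260. Without the 2 farthest values it was 0.521, 0.446 and 0.610. Over the 16 values SOX8 had r = 0.07 with PDGFRA, -0.54 with CSPG4 and 0.82 with TNR, while SOX6 had 0.66, -0.03 and 0.59 with these genes and SOX10 had 0.63, -0.08 and 0.45. French bulldogs 2 and 8, lowest of the 17 libraries in SOX8, had the highest PDGFRA (4954 and 4964 CPM), the highest CSPG4 (127 and 135 CPM) and the highest precursor sums. The same 2 libraries had the lowest BCAS1 of the 17 (72.9 and 65.4 CPM) and little ENPP6 (0.223 and 0.914 CPM). Their averaged precursor score, the measure correlated here, was -0.23, in a range of -1.09 to 0.54 over the 16 values. SOX6 and SOX10 fell with the astrocyte list by both measures. For SOX6 r was -0.783 and rho -0.759 (permutation adjusted p = 0.00875 and 0.0399), with -0.873 and -0.576 within French bulldogs and comparison dogs. For SOX10 r was -0.725 and rho -0.715 (permutation adjusted p = 0.0168 and 0.0453), with -0.886 and -0.395 within the groups. Without the 2 farthest values the r of SOX6 was -0.711 and that of SOX10 was -0.538. SOX6 also fell with the neuronal list (r = -0.608, rho = -0.615, permutation adjusted p = 0.0387 and 0.117), with -0.600 and -0.756 within the groups. The part of the cell mix in the relations between factors was not tested.

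**Figure D5:**
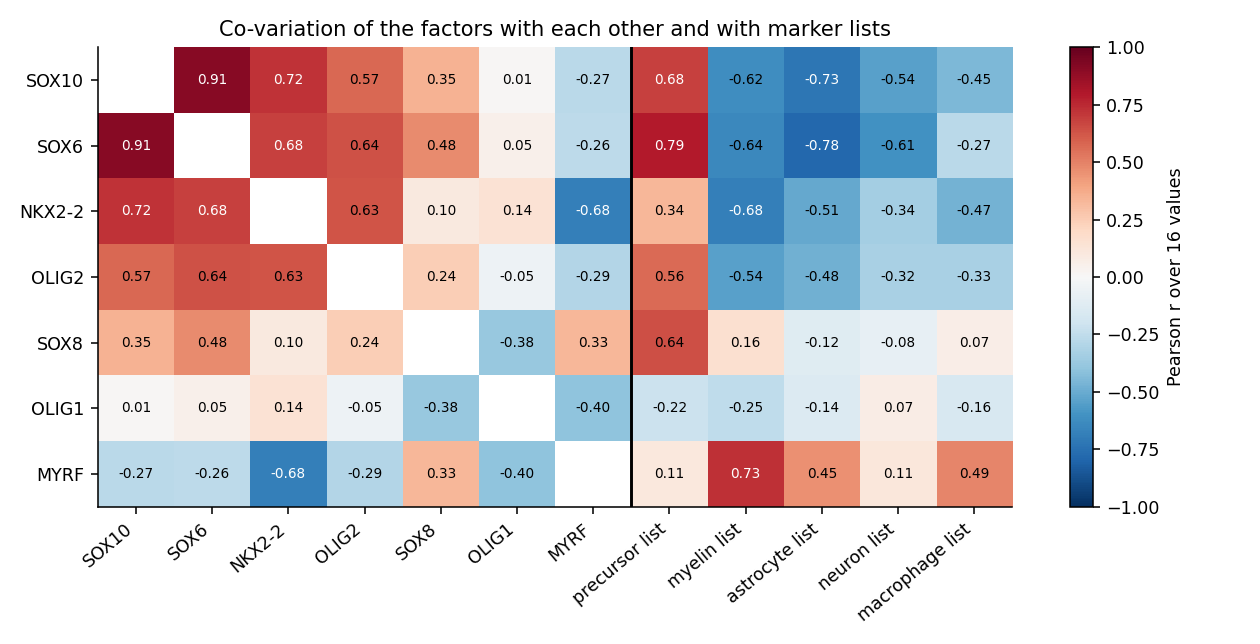
Pearson r over 16 values between 7 lineage factors (left of the line) and between each factor and the score of 5 marker lists (right of the line), from blue (-1) to red (1). SOX10, SOX6, NKX2-2 and OLIG2 form a red block, OLIG1 is pale with OLIG2, and MYRF is red with the myelin list and blue with NKX2-2.

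The genes whose log2 CPM was most like that of each factor over the 16 values were, for OLIG2, TRAF4 (r = 0.918), SLITRK2 (r = 0.853) and NES, which encodes the progenitor filament nestin (r = 0.841). For SOX10 they included SOX6 and RBMX (r = 0.900). For SOX6 they were SOX10, IPO4 (r = 0.890) and POP1 (r = 0.870), and for SOX8 they were MTF2 (r = 0.902), NR2C2 (r = 0.887) and FLVCR2 (r = 0.883). NKX2-2 was closest to NOVA1, a neural splicing factor (r = 0.956), NT5E (r = 0.905) and ZNF260 (r = 0.878). MYRF was closest to PPFIBP2 (r = 0.932), TMEM94 (r = 0.903) and SH3TC2 (r = 0.900), and OLIG1 to HERC1, CNOT9 and RPGR, at no more than 0.806. They were picked as the highest r among genes with a symbol and carry no test.

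Other genes of the pathway were read in the same comparison of French bulldogs with the comparison dogs (edgeR), and none was called after adjustment. Of 20 partners and regulators tested 1 was higher and 1 lower at an unadjusted p under 0.05, against 7.02% and 3.55% of all genes, and their median log2 fold change was 0.02. HDAC2, a histone deacetylase used in oligodendrocyte differentiation, had a log2 fold change of 0.78 (SE 0.26, edgeR adjusted p = 0.433), and SOX13, of the same SOX group as SOX6, had -0.91 (SE 0.38, edgeR adjusted p = 0.434). The counts were again 1 and 1 without French bulldog 6, with HDAC2 at 0.86 (SE 0.25) and SOX13 at -0.76 (SE 0.21), both at an edgeR adjusted p of 0.365. Next in order of p was TCF7L2, at 0.51 (SE 0.29). SOX9, the glial SOX factor, was 5.18 to 27.3 CPM in the 10 French bulldogs and 2.73 to 18.7 CPM in the comparison dogs.

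Of 8 precursor markers and 11 myelin genes none had an unadjusted p under 0.05 with all libraries (edgeR). Leaving out French bulldog 6, 1 precursor marker did, the extracellular matrix gene TNR, at -0.81 (SE 0.38, edgeR adjusted p = 0.453), where 3.93% of all genes were lower at that threshold. The precursor markers had a median log2 fold change of -0.42, with VCAN at -0.69, TNR at -0.97 and GPR17 at -0.68, and 3 of 8 values above 0. The myelin genes had a median of 0.66, with OPALIN at 1.53, ERMN at 1.36 and MAG at 0.94, and 10 of 11 values above 0, against 0.04 over all genes. Without French bulldog 6 the medians were -0.26 and 0.83. The myelin range was wide in French bulldogs, where MBP was 86.9 to 4545 CPM without French bulldog 6 against 296 to 794 CPM in the comparison dogs.

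Proliferation and cell type markers were listed beside these. Of 6 proliferation genes 3 were higher in French bulldogs at an unadjusted p under 0.05 (TOP2A at 1.34, BUB1 at 1.60 and MKI67 at 1.39 on the log2 scale, edgeR adjusted p = 0.434 to 0.471), against 7.02% of all genes, and 1 was without French bulldog 6, where that share was 6.92%. Of 12 macrophage markers 6 were with all libraries (CD163 at 4.94, C1QC at 2.67 and C1QA at 2.35, against the same 7.02%), and 0 were without French bulldog 6. The summed proliferation genes were 958, 1064 and 1028 CPM in French bulldogs 2, 8 and 6, and at most 464 CPM in any other library. The fit with French bulldogs 2 and 8 summed was read for the factors only. None of the astrocyte, neuronal, endothelial, Schwann cell or fibroblast markers was under 0.05 with all libraries, and 1 was without French bulldog 6, the astrocyte marker FGFR3, higher at 1.10 (SE 0.50, edgeR adjusted p = 0.443). Among the smallest p-values in these lists were those of FGFR3 (0.93), SLC1A2 (-0.71) and GJA1 (0.22) of the astrocyte list, RBFOX3 (-0.30), NEFL (0.43) and SYP (-0.23) of the neuronal list, VWF (-0.17), PECAM1 (-0.16) and FLT1 (-0.03) of the endothelial list, NGFR (2.33) and PRX (0.58) of the Schwann cell list, and PDGFRB (-0.61), LUM (1.26) and COL1A1 (1.19) of the fibroblast list, given as log2 fold changes.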

How the data were processed

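RNASeq was performed on 18 HGO libraries from fixed tissue. Per the labels and the methods, reads were trimmed with Trimmomatic 0.33, mapped with HISAT2 2.1.0 to a dog genome and counted per gene with featureCounts. The authors deposited raw counts, without normalization, for 29993 genes by Ensembl ID, 16324 of them with a symbol, and members were matched by symbol. The strand setting of the counting is not given in the sources used here, so antisense reads could not be told apart.

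Counts were tested with edgeR 4.0.16 in R 4.3.3 (TMM, filterByExpr, robust quasi-likelihood F test, no covariate). Alternatives were DESeq2 1.42.0, limma-voom (limma 3.58.1), other scalings and filters, libraries left out, and a block for the dog's number. Log2 CPM used a prior count of 2. Correlations and figures were made with Python 3.11.15, numpy 2.4.6, pandas 2.3.3, scipy 1.17.1 and matplotlib 3.10.9. The code was tested on simulated data. The p-values measure the spread between libraries labelled as separate dogs, of which French bulldogs 2 and 8 share a case number.

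The members and lists were chosen with earlier results of these data known. Genes named are all members, the 3 genes of highest r with each, the 3 genes of smallest p of each list, and PDGFRA, CSPG4, MBP, SOX9, GFAP, RBFOX3, CD163 and AIF1. A further ratio and the pairs planned with SOX2 could not be made. Results for some genes that this rule names are not reported here. Sequences were not used here, and ages entered no test.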

Additional observations from a re-analysis of the deposited data

Results flagged for a closer look

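NKX2-2 in Boston terrier 2 was 111 CPM, against a next highest value of 73.2 CPM among the 7 comparison dogs, a gap of 0.619 of the range of that group. Chance flags about 1 in 20 groups, and 22 groups of values were examined in this way. Groups of over 10 samples were not examined.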

How the results depend on the processing

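No factor was called after adjustment under any alternative run for any comparison of breeds. Of 474 alternative values of the factors' log2 fold changes, 434 kept their sign and 40 reversed, and no value of these 40 passed the threshold. Sizes moved more than signs. Over all alternatives of French bulldog minus comparison the ranges were -0.86 to 0.22 for OLIG1, -1.45 to -0.29 for OLIG2, -1.06 to -0.06 for SOX10, -1.58 to -0.25 for SOX8, -0.81 to 0.42 for NKX2-2, -1.15 to -0.05 for SOX6 and -1.46 to -0.25 for MYRF. The lowest value was that of limma-voom for each of these but MYRF (-1.30 by limma-voom), whose lowest was with the replicate block. For French bulldog minus comparison, OLIG1 reversed to 0.000537 by DESeq2, 0.000152 with DESeq2 size factors, 0.0114 without a filter, 0.159 without French bulldog 6, 0.00382 with French bulldogs 2 and 8 summed as well, 0.0763 and 0.219 without French bulldog 6 against comparison dogs 1 to 4 and 5 to 7, 0.154 without it by DESeq2, and 0.0812 against dogs 5 to 7 with it. NKX2-2 reversed to -0.81 by limma-voom. Without French bulldog 6, SOX10 and SOX6 against boxers became 0.033 and 0.097, and OLIG1 against Boston terriers 0.10. The causes were not tested. A few of these alternatives (French bulldog 6 left out together with a second choice, and the numbers 1 to 7 without a block) were chosen after seeing the data. With at least 10 counts in every library MYRF was the 1 factor left to test.

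Leaving out each of the 18 libraries gave, for French bulldog minus comparison, ranges of -0.17 to 0.16 for OLIG1, 0.05 to 0.32 for NKX2-2, -0.31 to -0.06 for SOX10, -0.40 to -0.15 for SOX6 and -0.83 to -0.34 for MYRF, with the lowest MYRF without French bulldog 9 and the values of SOX10, SOX6 and MYRF nearest to 0 without French bulldog 6. In the comparisons of single breeds only the 7 boxers and Boston terriers were left out in turn (the values without French bulldog 6 stand above), and the ranges crossed 0 for OLIG1 (-0.069 to 0.20), SOX10 (-0.24 to 0.000873) and SOX6 (-0.13 to 0.14) in French bulldog minus boxer; for OLIG1 (-0.14 to 0.049), NKX2-2 (-0.16 to 0.42), MYRF (-0.64 to 0.035) and ZNF488 (-0.28 to 0.18) in French bulldog minus Boston terrier; and for OLIG1 (-0.24 to 0.029), NKX2-2 (-0.44 to 0.14) and MYRF (-0.079 to 0.63) in boxer minus Boston terrier.

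By r, pairs of factors past the threshold numbered 6 over the 16 values, 15 over all 18 libraries, 4 within French bulldogs and 0 within comparison dogs, where 3 pairs had an unadjusted permutation p under 0.05. With DESeq2 size factors it was 4 by r and 2 by rho, and the pairs of OLIG2 with NKX2-2 and with SOX6 no longer passed (permutation adjusted p = 0.0569 for both). It was 5 for residuals from the breed means. With French bulldogs 2 and 8 as separate values it was 7, of which 2 were negative, and 15 relations with marker lists passed by r. Relations with marker lists numbered 10, and 17, 5 and 0 over all 18 libraries, within French bulldogs and within comparison dogs. The r of NKX2-2 and MYRF reversed to 0.53 over all 18 libraries and 0.311 within comparison dogs. With totals that leave out the gene of highest count, the median was 236 CPM for OLIG2 and 444 CPM for SOX10.

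A replicate block over the numbers 1 to 7 called 0 of 7 factors and turned NKX2-2 to -0.23, with 0 of all genes called against 5 without the block. The dogs share no more than a number, since same-numbered dogs deviated together with r of -0.522 to 0.189. Depth limits ZNF488, which had 150 counts over all libraries.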
